A study of Mus musculus with 18 samples.

Results

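The 4 LINGO genes Lingo1, Lingo2, Lingo3 and Lingo4 were described together with 3 genes of the Nogo receptor complex, Rtn4r, Ngfr and Tnfrsf19, in mouse small cell lung cancer. They were picked by name, as 7 of the 46078 genes in the RNA-seq table. Each gene was joined to the ATAC-seq peaks between 5000 bp upstream of its start and its end, which gave 53 of 111664 peaks. All 3 genotypes carried conditional alleles of Rb1, Trp53 and a member of the retinoblastoma family, which the labels give as Rbl1 and the study's text also as Rbl2. TKO tumors had no further allele, TKO;Carm1 KO tumors also carried a conditional Carm1 allele, and TKO;Nfib R388K tumors carried an Nfib knock-in of lysine for arginine (R388K). Adenovirus-Cre was instilled into the trachea at 8 weeks of age and tumors were taken 28 weeks later. The cells were sorted by a tdTomato reporter that Cre switches on in any cell the virus infects, so neither the virus nor the reporter is restricted to 1 cell type. CARM1 is an arginine methyltransferase and NFIB a nuclear factor I transcription factor that it methylates, and the comparisons ask which genes and chromatin regions need either. The measurements were 3 RNA-seq and 3 ATAC-seq libraries per genotype from separate mice, with 15848866 to 20915057 counts per RNA-seq library and 26917178 to 47653979 counts in peaks per ATAC-seq library.

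LINGO proteins are single-pass membrane proteins of neurons and glia with leucine-rich repeats and an immunoglobulin domain outside the cell. LINGO1 joins the Nogo receptor (Rtn4r), which has no intracellular part, and a signalling co-receptor of the tumor necrosis factor receptor family, either the low-affinity neurotrophin receptor (Ngfr) or TROY (Tnfrsf19). The complex binds the myelin proteins Nogo (Rtn4), MAG and OMgp and acts through RhoA to halt axon growth, and LINGO1 also restrains the maturation of oligodendrocytes. LINGO2, LINGO3 and LINGO4 are paralogs whose functions are less well known. Small cell lung cancer is a neuroendocrine tumor that expresses many neuronal genes, and the study itself displayed Lingo1 from these libraries, so its change here is no independent evidence. The study also reported the change for LINGO1 protein, by immunoblots of tumor lysates.

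The libraries differed between genotypes in more than these genes. The 12 neuroendocrine markers summed to 1776 to 3925 CPM (counts scaled to library size) in TKO, to 59.2, 188 and 1954 CPM in TKO;Carm1 KO replicates 1, 2 and 3, and to 33.6 to 51.1 CPM in TKO;Nfib R388K. All mutant libraries except TKO;Carm1 KO replicate 3 were therefore low in the defining markers of the labelled cell type. The 6 fibroblast markers summed to 11.1 to 63.3 CPM in TKO, 14434 to 25754 CPM in TKO;Carm1 KO and 9464 to 15888 CPM in TKO;Nfib R388K. The 12 leukocyte markers reached at most 57.4 CPM in TKO and lay between 82.4 and 2779 CPM in the mutants, while the 11 Schwann cell and glial markers summed to 105 to 144, 117 to 289 and 227 to 287 CPM, with Sox10 at 0 counts in every mutant library. The 6 markers of pericytes and smooth muscle summed to 7.57 to 16.9 CPM in TKO and 412 to 2547 CPM in the mutants, the 10 of lung epithelium were at 2.92 to 2831 CPM in the mutants and at most 45.6 CPM in TKO, and the 6 of endothelium stayed at or under 17.4 CPM throughout. The part of these markers in the results was not tested. Nfib itself was at 420 to 579 CPM in TKO and 74.4 to 216 CPM in the mutants. Carm1 was at 50.7 to 79.0 CPM in TKO;Carm1 KO and 44.5 to 103 CPM in TKO, and counts over the whole gene cannot check a deletion of some of its exons.

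Sequences of the regions that the results turn on are shown first, from the GRCm38.p6 genome. One arm of the NFI recognition sequence, TTGGC or its reverse complement GCCAA, is in capitals on either strand. The first is from the Lingo1 promoter, the 250 bases before a RefSeq start on the minus strand, which holds no NFI arm. The others are the middle 300 bases of peaks, on the plus strand, that meet no annotated exon and were called lower, or in 1 case higher, in both mutants.
Lingo1 promoter, chr9:56635649-56635898: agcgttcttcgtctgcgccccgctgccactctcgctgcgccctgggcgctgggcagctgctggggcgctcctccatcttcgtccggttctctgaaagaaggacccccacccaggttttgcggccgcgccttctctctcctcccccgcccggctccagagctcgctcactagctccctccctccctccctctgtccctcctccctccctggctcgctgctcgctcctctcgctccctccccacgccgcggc
Lingo1 peak 28.9 kb into the gene, chr9:56767391-56767690: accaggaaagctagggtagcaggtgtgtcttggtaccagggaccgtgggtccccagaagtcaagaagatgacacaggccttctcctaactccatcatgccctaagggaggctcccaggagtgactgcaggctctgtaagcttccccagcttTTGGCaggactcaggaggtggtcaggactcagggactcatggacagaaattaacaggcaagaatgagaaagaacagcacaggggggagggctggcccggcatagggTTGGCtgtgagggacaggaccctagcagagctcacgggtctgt
Lingo1 peak 57.9 kb into the gene, chr9:56738448-56738747: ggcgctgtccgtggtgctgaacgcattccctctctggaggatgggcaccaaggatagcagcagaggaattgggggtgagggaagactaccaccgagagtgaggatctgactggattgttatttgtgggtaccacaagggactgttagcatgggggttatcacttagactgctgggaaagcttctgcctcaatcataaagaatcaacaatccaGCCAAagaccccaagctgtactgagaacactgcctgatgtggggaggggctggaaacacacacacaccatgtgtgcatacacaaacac
Lingo2 peak that closed, chr4:35885888-35886187: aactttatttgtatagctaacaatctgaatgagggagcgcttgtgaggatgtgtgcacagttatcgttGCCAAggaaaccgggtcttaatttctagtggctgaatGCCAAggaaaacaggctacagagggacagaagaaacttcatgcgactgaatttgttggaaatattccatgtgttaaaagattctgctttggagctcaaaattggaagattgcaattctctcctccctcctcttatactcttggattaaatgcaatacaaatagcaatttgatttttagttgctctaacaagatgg
Lingo2 peak that opened, chr4:36014217-36014516: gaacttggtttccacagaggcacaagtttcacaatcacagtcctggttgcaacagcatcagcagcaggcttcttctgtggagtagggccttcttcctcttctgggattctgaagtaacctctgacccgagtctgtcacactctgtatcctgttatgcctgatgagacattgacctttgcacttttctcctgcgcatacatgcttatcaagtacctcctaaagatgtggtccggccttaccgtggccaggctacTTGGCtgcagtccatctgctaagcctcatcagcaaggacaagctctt
Rtn4r peak 20.9 kb into the gene, chr16:18148374-18148673: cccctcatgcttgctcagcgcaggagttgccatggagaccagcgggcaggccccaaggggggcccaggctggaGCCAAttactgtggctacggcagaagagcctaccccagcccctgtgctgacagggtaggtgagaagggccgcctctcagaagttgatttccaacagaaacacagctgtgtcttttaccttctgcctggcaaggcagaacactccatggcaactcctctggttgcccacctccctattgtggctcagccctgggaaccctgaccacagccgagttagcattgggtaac

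Lingo1 (ENSMUSG00000049556, GRCm38 chr9:56618475-56796468, minus strand) was the LINGO gene with the highest RNA-seq level in TKO tumors, and it was almost lost in both mutants. The 3 TKO libraries held 81.3, 88.6 and 59.3 CPM of Lingo1. The TKO;Carm1 KO libraries held 0.0677, 0.641 and 2.69 CPM, and the TKO;Nfib R388K libraries 0.85, 0 and 0.254 CPM. The groups did not overlap: the highest mutant library, TKO;Carm1 KO replicate 3, lay far under the lowest TKO library, although its neuroendocrine markers reached the TKO range. Mean Lingo1 fell from 76.4 ± 15.3 CPM to 1.13 ± 1.38 CPM in TKO;Carm1 KO and 0.368 ± 0.436 CPM in TKO;Nfib R388K (SD, n = 3 each), which is 67.4-fold and 208-fold lower. By edgeR's quasi-likelihood test, adjusted after Benjamini and Hochberg over 15514 genes, the log2 fold change was -6.05 (SE 1.34, adjusted p = 0.0121) in TKO;Carm1 KO and -7.67 (SE 1.47, adjusted p = 0.00568) in TKO;Nfib R388K. Both calls were kept in all 15 alternative fits that tested the gene, where the adjusted p reached at most 0.0446 and 0.0255. The log2 fold change was -7.64 without TKO;Carm1 KO replicate 3, and in TKO;Nfib R388K it was -9.16 without replicate 1 and -7.08 without replicate 2. A gene was called where the adjusted p lay under 0.1 and the log2 fold change reached 0.8 in size. In sorted bulk cells, fewer cells of a type and less RNA per cell cannot be told apart.

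Lingo2 (ENSMUSG00000045083, chr4:35706647-36951747, minus strand) is a very long gene with a low level. TKO libraries held 1.15, 1.66 and 2.21 CPM, from 24, 38 and 50 counts. TKO;Carm1 KO libraries held 0, 1 and 0 counts and TKO;Nfib R388K libraries 3, 0 and 2 counts. Every mutant library was under every TKO library. The ratio of summed counts was 84.0-fold lower in TKO;Carm1 KO, with a 95% counting interval of 14.8 to 3348 since it rests on 1 count, and the mean was 16.3-fold lower in TKO;Nfib R388K. Lingo2 was called lower in both (log2 fold change -5.97, SE 1.27, adjusted p = 0.00806, and -3.94, SE 1.03, adjusted p = 0.0166, edgeR), and in each of 15 alternatives. Without TKO;Nfib R388K replicate 1 the second log2 fold change was -4.58.

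Lingo3 (ENSMUSG00000051067, chr10:80832801-80844039, minus strand) was uneven among the TKO tumors. Replicates 1 and 2 held 9.31 and 6.9 CPM, and replicate 3 held 0.133 CPM, from 3 counts. TKO;Carm1 KO libraries held 0, 0 and 1.18 CPM and TKO;Nfib R388K libraries 0.121, 0 and 0 CPM. It was the only tested gene of the set whose groups overlapped, since the low TKO library lay under TKO;Carm1 KO replicate 3. The call was made in TKO;Nfib R388K alone (-6.83, SE 2.49, adjusted p = 0.0515), and it was lost without TKO replicate 1 (adjusted p = 0.104) and without TKO;Nfib R388K replicate 2 or 3 (both 0.136). In TKO;Carm1 KO the log2 fold change of -3.75 (SE 1.99, adjusted p = 0.169) was not called, while without replicate 3 of that genotype, which held 21 counts, it was called (adjusted p = 0.0483). The ratio of summed counts in TKO;Nfib R388K was 130-fold lower (95% counting interval 35.6 to 1075, from 2 counts), 85.8-fold without TKO replicate 1 and 195-fold without TKO replicate 3.

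Lingo4 (ENSMUSG00000044505, chr3:94398517-94404501, plus strand) was present in each TKO library, at 1.63, 3.45 and 3.32 CPM. TKO;Carm1 KO replicates 1 and 2 held 0 counts and replicate 3 held 15 counts (0.841 CPM). No count of Lingo4 was found in any TKO;Nfib R388K library. Mutant and TKO values did not overlap. Lingo4 was called lower in TKO;Nfib R388K (adjusted p = 0.0301), where it was at least 15.1-fold lower against 3 counts in each library. In TKO;Carm1 KO it was not called (-3.26, SE 1.57, adjusted p = 0.152), and without replicate 3 it was (adjusted p = 0.0147).

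Of the partners, Rtn4r (ENSMUSG00000043811, chr16:18127642-18152408, plus strand), the receptor that binds the ligands, kept the most RNA in the mutants. TKO libraries held 4.13, 16.1 and 3.58 CPM of Rtn4r. TKO;Carm1 KO libraries held 1.02, 0.116 and 3.53 CPM, and TKO;Nfib R388K libraries 3.46, 0.308 and 0.254 CPM. The groups only just failed to overlap, with TKO replicate 3 at 3.58 CPM beside TKO;Carm1 KO replicate 3 at 3.53 CPM. Neither difference was called (-2.34, SE 1.41, adjusted p = 0.219, and -2.56, SE 1.42, adjusted p = 0.174). The mean was 5.1-fold and 5.91-fold lower, and 2.48-fold and 2.88-fold without TKO replicate 2. In TKO;Nfib R388K it was called by DESeq2 (adjusted p = 0.0877) and without replicate 1 of that genotype (adjusted p = 0.0547).

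Ngfr (ENSMUSG00000000120, chr11:95568818-95587735, minus strand), the low-affinity neurotrophin receptor, was uneven among the TKO tumors, with most of its counts in replicate 3. TKO libraries held 40, 3 and 285 counts, or 1.92, 0.131 and 12.6 CPM. TKO;Carm1 KO libraries held 1, 0 and 1 counts, and TKO;Nfib R388K libraries held none. All mutant values were under all TKO values, but the gene did not pass the filter on low counts and has no main test. With no filter, over 27468 genes, edgeR called it lower in both mutants (adjusted p = 0.0493 and 0.024). Ngfr was at least 26.3-fold lower in TKO;Nfib R388K against 3 counts in each library, and at least 5.52-fold without TKO replicate 3. In TKO;Carm1 KO the ratio of summed counts was 123-fold lower (95% counting interval 33.8 to 1020), and 24.5-fold without TKO replicate 3. Sox10, a glial transcription factor, was at 0.048, 0 and 0.265 CPM in the 3 TKO libraries.

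Tnfrsf19 (ENSMUSG00000060548, chr14:60963875-61046490, minus strand), which encodes TROY, stood second to Lingo1 in TKO tumors. TKO libraries held 22.4, 88.3 and 12.9 CPM. TKO;Carm1 KO libraries held 0.744, 2.33 and 0 CPM, and TKO;Nfib R388K libraries 1.64, 0.369 and 0 CPM. No mutant library reached the lowest TKO library. The mean was 40.2-fold lower in TKO;Carm1 KO (log2 fold change -5.32, SE 1.79, adjusted p = 0.051) and 61.5-fold lower in TKO;Nfib R388K (-5.92, SE 1.85, adjusted p = 0.0342). The folds were 17.2 and 26.3 without TKO replicate 2, and neither call was then made (adjusted p = 0.155 and 0.106). The first call was also lost without TKO;Carm1 KO replicate 1 (adjusted p = 0.137), and the second without TKO;Nfib R388K replicate 2 (0.1). Leaving out mutant libraries moved the log2 fold change to between -6.80 and -4.68 in TKO;Carm1 KO and between -7.73 and -5.34 in TKO;Nfib R388K.

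Of the 6 genes tested, 3 were called lower in TKO;Carm1 KO (18.3% of all genes tested were called lower) and 5 in TKO;Nfib R388K (23.5%). Lingo1, Lingo2 and Tnfrsf19 were lower in both mutants (15.4% of all genes tested). Leaving out 1 library at a time gave 2 to 6 genes called lower in TKO;Carm1 KO. The 6 of 7, all but Rtn4r, came without replicate 3 of that genotype. Its values were the highest of the genotype for Lingo1, Lingo3, Lingo4 and Rtn4r. The share of all genes called lower in those fits is not given here. All of the 7 genes but Lingo3, and so 5 of the 6 tested, had each mutant library under each TKO library (23.3% of all genes tested did). None was called between the mutants by edgeR (0% of all genes tested were called), where 0 members had an unadjusted p under 0.05 and DESeq2 also called 0. The adjusted p of the differences between the mutants lay between 0.571 and 0.981. The standard errors were at least 1.24 on the log2 scale for the 5 genes other than Lingo4, which has none because no TKO;Nfib R388K library held a count, so a difference of several-fold in these genes could have been missed. The order of levels per kilobase of exon in TKO was Lingo1 (16.2 ± 3.24 CPM per kb, SD, n = 3), Tnfrsf19 (8.69 ± 8.67), Rtn4r (4.09 ± 3.64), Lingo3 (1.53 ± 1.34), Ngfr (1.42 ± 1.96), Lingo4 (0.768 ± 0.278) and Lingo2 (0.202 ± 0.0639). Neighbours in this order overlapped in their ranges, except Lingo4 and Lingo2. In both mutants Rtn4r was the highest, at 0.802 ± 0.914 and 0.692 ± 0.947 CPM per kb, and every pair of neighbours overlapped.

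**Figure D1:**
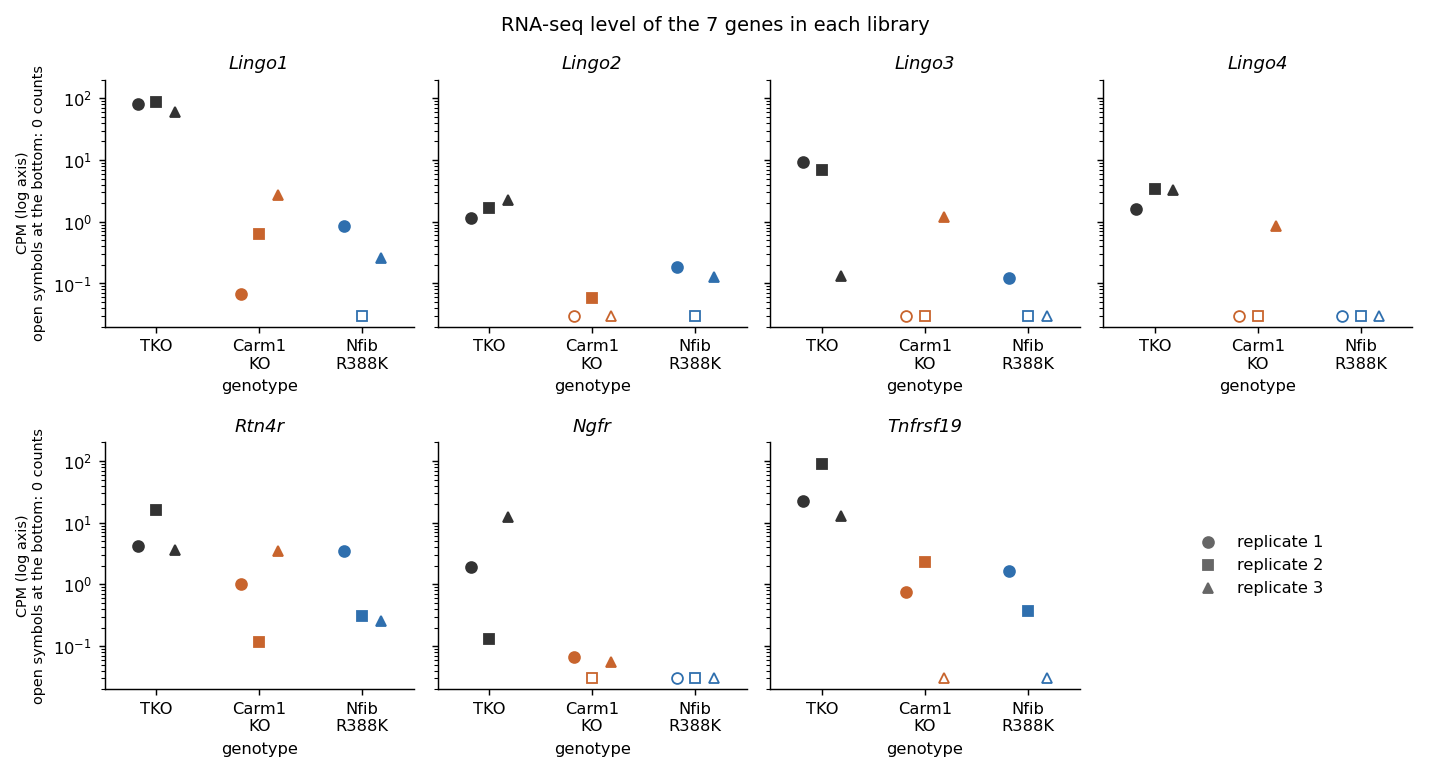
RNA-seq level of each gene in CPM on a log axis, by genotype, with 1 symbol per library (circle, square and triangle for replicates 1, 2 and 3) and open symbols at the bottom for libraries with 0 counts. Lingo1 lies at 59.3 to 88.6 CPM in TKO and at or under 2.69 CPM in the 6 mutant libraries, while the TKO values run from 0.131 to 12.6 CPM for Ngfr and from 0.133 to 9.31 CPM for Lingo3.

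The chromatin of these genes was mostly less accessible in both mutants. Of the 53 peaks, 52 passed the filter on low counts. In TKO;Carm1 KO, 43 were called lower and 4 higher, where 32.4% and 38.7% of all peaks tested were called lower and higher. In TKO;Nfib R388K, 44 were called lower and 3 higher, where 34% and 39.3% of all peaks tested were. A peak was called where edgeR's adjusted p lay under 0.1 and the log2 fold change reached 0.5 in size. The 43 peaks lower in TKO;Carm1 KO were also lower in TKO;Nfib R388K, and 3 peaks, all in introns of Lingo2, were higher in both (30.8% and 35% of all peaks tested were lower or higher in both). In 39 of the 53 peaks, the untested peak among them, every mutant library was under every TKO library (28.6% of all peaks tested). The median log2 fold change over the tested peaks was -2.83 in TKO;Carm1 KO and -2.93 in TKO;Nfib R388K, against 0.22 over all peaks in each. No peak was called between the mutants by edgeR (0% of all peaks tested), with 2 at an unadjusted p under 0.05 and 0 called by DESeq2. By place, 12 of the 13 peaks within 1000 bp of a transcript start of their gene and 27 of the 35 intron peaks were lower in both. Scaling by library totals, which moves the median of all peaks by 0.57 on the log2 scale, left 39 and 41 peaks called lower and turned the sign of no called peak.

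**Figure D2:**
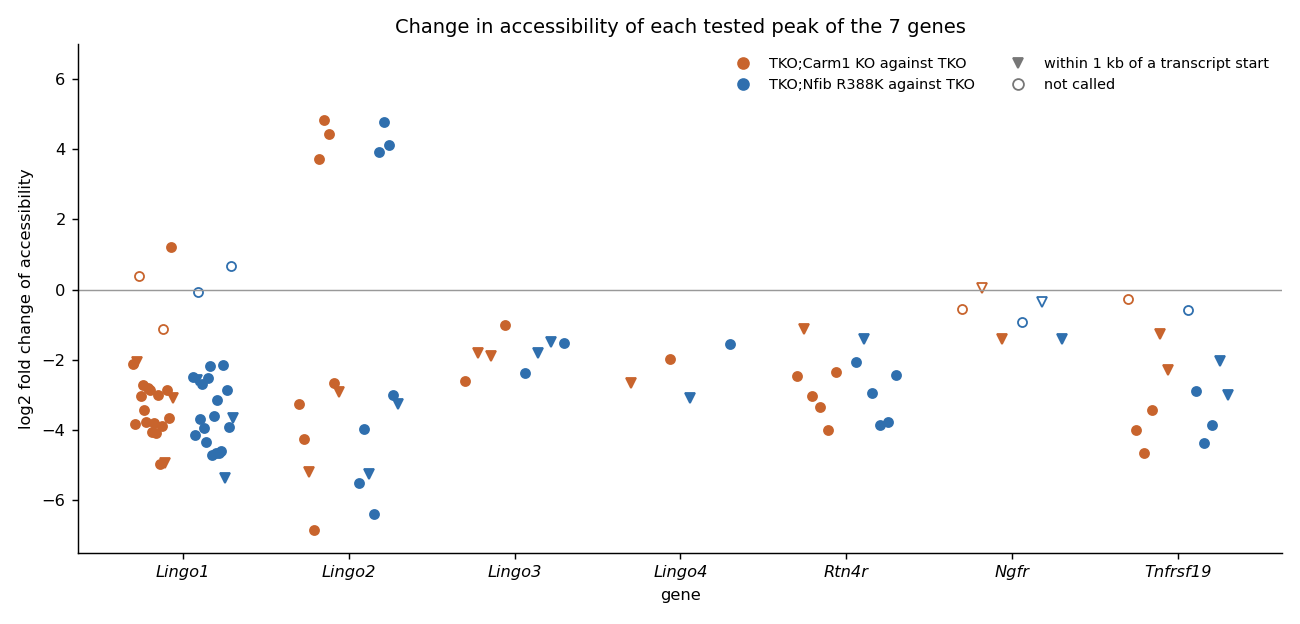
Log2 fold change of each of the 52 tested peaks, by gene, for each mutant against TKO, with triangles for peaks within 1 kb of a transcript start, circles for others and open symbols for peaks not called. Peaks lie below 0 in all 7 genes, and the 3 Lingo2 peaks between 3.73 and 4.82 are the high points.

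Lingo1 held 22 of the peaks, spread over the whole gene. Their summed reads were 393, 351 and 214 CPM in TKO, 28.6, 32.3 and 44.0 CPM in TKO;Carm1 KO, and 26.5, 27.4 and 25.1 CPM in TKO;Nfib R388K, over 31.4 kb of peaks. TKO replicate 3 was the lowest TKO library here as it was in RNA. It was also the lowest for the peaks of all 7 genes summed, at 630, 671 and 395 CPM in TKO replicates 1, 2 and 3. Of the 22 peaks 19 were called lower in TKO;Carm1 KO and 20 in TKO;Nfib R388K. The 19 called lower in both had log2 fold changes between -2.07 and -4.96 in TKO;Carm1 KO and between -2.19 and -5.37 in TKO;Nfib R388K.

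The peak 28.9 kb into Lingo1 (chr9:56766489-56768591), 532 bp from the start of a shorter transcript, was open in TKO and close to closed in both mutants. It held 57.1, 70.0 and 22.8 CPM there, 1.06, 0.691 and 3.19 CPM in TKO;Carm1 KO and 1.79, 0.938 and 0.902 CPM in TKO;Nfib R388K. Its log2 fold change was -4.93 (SE 0.64, adjusted p = 0.000167) and -5.37 (SE 0.66, adjusted p = 0.000106), and the first was -5.83 without TKO;Carm1 KO replicate 3. The intron peak 57.9 kb into the gene (chr9:56737121-56740073) showed the same order, with 37.5, 42.3 and 22.3 CPM in TKO and at most 1.73 CPM in any mutant library. The peak over the downstream start sites (chr9:56633405-56636941), which covers the promoter printed above, kept part of its signal. It held 59.5, 59.7 and 55.1 CPM in TKO, 12.6, 13.8 and 15.2 CPM in TKO;Carm1 KO and 9.59, 9.19 and 10.6 CPM in TKO;Nfib R388K. That is 4.19-fold and 5.93-fold lower, with little spread between libraries, against 30.3-fold and 41.3-fold for the peak at 28.9 kb. The peak over the most upstream start (chr9:56795704-56798215) fell from 29.6, 23.4 and 17.2 CPM to 1.76 to 4.18 CPM in TKO;Carm1 KO and 1.67 to 1.92 CPM in TKO;Nfib R388K. Of the 3 Lingo1 peaks not lower in both, 1 small peak 17.7 kb into the gene was called higher in TKO;Carm1 KO, from 0.35, 0.34 and 0.38 CPM to 0.439, 0.998 and 1.04 CPM (adjusted p = 0.0654). That call was lost in 7 of 16 alternatives, both with DESeq2 among them.

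**Figure D3:**
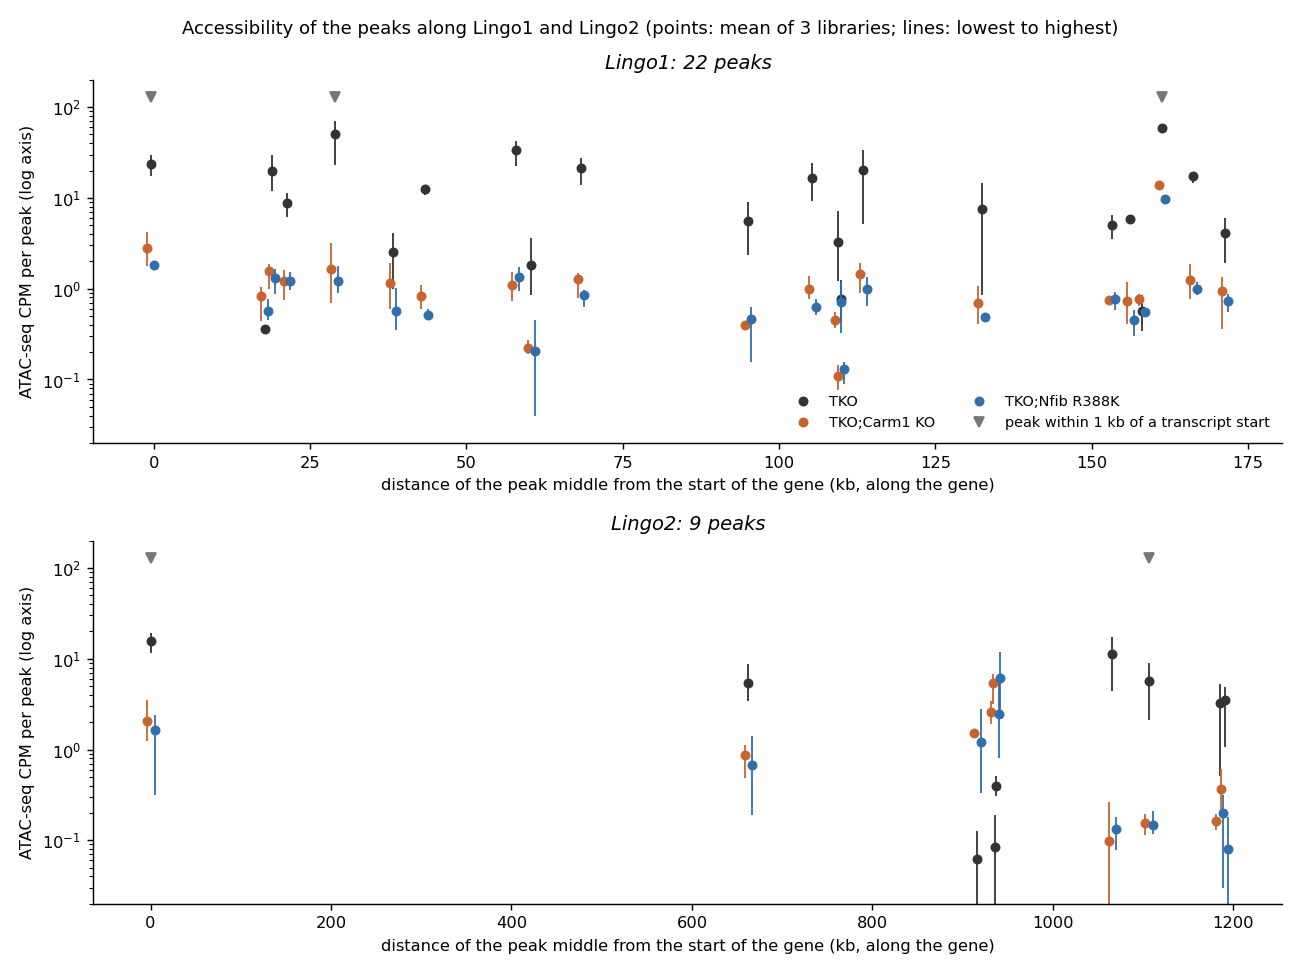
ATAC-seq CPM of each peak on a log axis against its distance along the gene from the start of Lingo1 (upper panel) or Lingo2 (lower panel), with the mean of 3 libraries as points, lowest to highest as lines, and mutants drawn slightly to the sides. A line that reaches the bottom includes a library at or near 0. TKO lies above both mutants at most Lingo1 peaks, by the least at the start-site peak at 161 kb among the large ones, and below them at 3 Lingo2 peaks near 916 to 937 kb.

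Lingo2 had 9 peaks over its 1245101 bp, and they moved in opposite directions. In both mutants 6 were called lower, among them the start-site peak (chr4:36950135-36952054) with 16, 19.2 and 11.7 CPM in TKO, 1.24, 3.47 and 1.5 CPM in TKO;Carm1 KO and 2.18, 0.313 and 2.41 CPM in TKO;Nfib R388K. The intron peak at chr4:35885622-35886453, whose middle is printed above with 2 NFI arms, was the most changed of them. It fell from 12, 17.5 and 4.43 CPM to at most 0.266 CPM (log2 fold change -6.86, SE 1.06, adjusted p = 0.000413, and -6.40, SE 1.03, adjusted p = 0.000457). The first value rests on few reads, and was -9.60 without TKO;Carm1 KO replicate 3 and -6.22 without replicate 2. The other three lay in an intron, 916 to 937 kb into the gene, and were higher in both mutants. They are named here after their values were seen. The largest (chr4:36013975-36014758) held 0.51, 0.309 and 0.38 CPM in TKO, 3.15, 6.03 and 6.84 CPM in TKO;Carm1 KO and 3.70, 2.67 and 11.8 CPM in TKO;Nfib R388K. TKO and mutant values did not overlap at any of the 3. Its log2 fold change was 3.73 (SE 0.66, adjusted p = 0.000853) and 3.92 (SE 0.66, adjusted p = 0.000607). The RNA of Lingo2 was lower in both mutants, as given above. Among the TKO libraries its RNA was highest in replicate 3, while its summed peaks were lowest there, at 43.2, 61.9 and 31.2 CPM.

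Lingo3 and Lingo4 had 4 and 2 peaks, all called lower in both mutants. The Lingo3 intron peak (chr10:80836901-80838830) held 15.9, 16.4 and 18.3 CPM in TKO, 2.53 to 2.90 CPM in TKO;Carm1 KO and 2.47 to 3.70 CPM in TKO;Nfib R388K. Its start-site peak (chr10:80843668-80844657) held 6.95, 5.59 and 4.69 CPM in TKO and 1.14 to 2.47 CPM in the mutants. Both were therefore open in TKO replicate 3, the ATAC-seq library numbered as the RNA-seq library with 3 counts of Lingo3. The study took both assays from the same tumors, but the labels do not say that equal numbers mark the same mouse. The Lingo4 start-site peak (chr3:94398599-94400439) held 12.6, 19.8 and 21.6 CPM in TKO, 2.58, 3.15 and 2.85 CPM in TKO;Carm1 KO and 1.79, 1.49 and 3 CPM in TKO;Nfib R388K (log2 fold change -2.65, SE 0.39, and -3.10, SE 0.39).

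Among the partners, all 6 Rtn4r peaks were called lower in both mutants, although the RNA was not. The peak over its start (chr16:18126628-18128742) changed least, from 22.8, 24.5 and 23.0 CPM to 7.80, 10.1 and 14.6 CPM in TKO;Carm1 KO and 11.7, 7.58 and 7.18 CPM in TKO;Nfib R388K (log2 fold change -1.11, SE 0.29, adjusted p = 0.00636, and -1.41, SE 0.29, adjusted p = 0.00176). Scaled by library totals it was not called in TKO;Carm1 KO (adjusted p = 0.154). The intron peak at chr16:18147974-18149072, printed above, held 13.5, 16 and 2.03 CPM in TKO and at most 0.956 CPM in the mutants. Rtn4r was highest in TKO replicate 2 in RNA, and so were its peaks in sum, at 65.1, 98.2 and 37.0 CPM. The peaks of all 7 genes summed were also highest in that library, at 671 CPM.

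Tnfrsf19 had 7 peaks, of which 6 were tested and 5 called lower in both mutants. Its start-site peak (chr14:61045533-61047108) held 26.6, 34.9 and 20.1 CPM in TKO, 5.55, 7.29 and 3.99 CPM in TKO;Carm1 KO and 6.24, 1.39 and 2.69 CPM in TKO;Nfib R388K (log2 fold change -2.28, SE 0.49, adjusted p = 0.00251, and -2.99, SE 0.51, adjusted p = 0.000632, with -3.72 in the latter without its replicate 1). The groups did not overlap. A second start-site peak (chr14:61037340-61038682) was called lower in TKO;Carm1 KO with an adjusted p of 0.0713, and 7 alternatives lost that call. One intron peak (chr14:60992934-60994375), named after its values were seen, was not called in either mutant, with 20.6, 23.7 and 5.28 CPM in TKO, 13.3, 16.1 and 11.5 CPM in TKO;Carm1 KO and 12.5, 8.54 and 11.9 CPM in TKO;Nfib R388K. TKO replicate 3 was the lowest of the 9 libraries, and without it the peak was called lower in both mutants (adjusted p = 0.0306 and 0.005). Like its RNA, the summed peaks of Tnfrsf19 were highest in TKO replicate 2, at 72.1, 100 and 35.9 CPM. The sum over the peaks of all 7 genes was highest in the same library.

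Ngfr had the smallest change in accessibility. Of its 3 peaks only the start-site peak (chr11:95586890-95587977) was called lower, with log2 fold changes of -1.41 (SE 0.56, adjusted p = 0.0434) and -1.42 (SE 0.56, adjusted p = 0.0407). It held 4.91, 2.29 and 12.5 CPM in TKO, 2.04, 2.5 and 2.85 CPM in TKO;Carm1 KO and 2.84, 2.28 and 2.22 CPM in TKO;Nfib R388K. The groups overlapped, and TKO replicate 3 was the highest, as in RNA. Without that library neither call was made (log2 fold change -0.54 and -0.55, adjusted p = 0.305 and 0.292), nor was either made when scaled by library totals (adjusted p = 0.194 and 0.178).

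**Figure D4:**
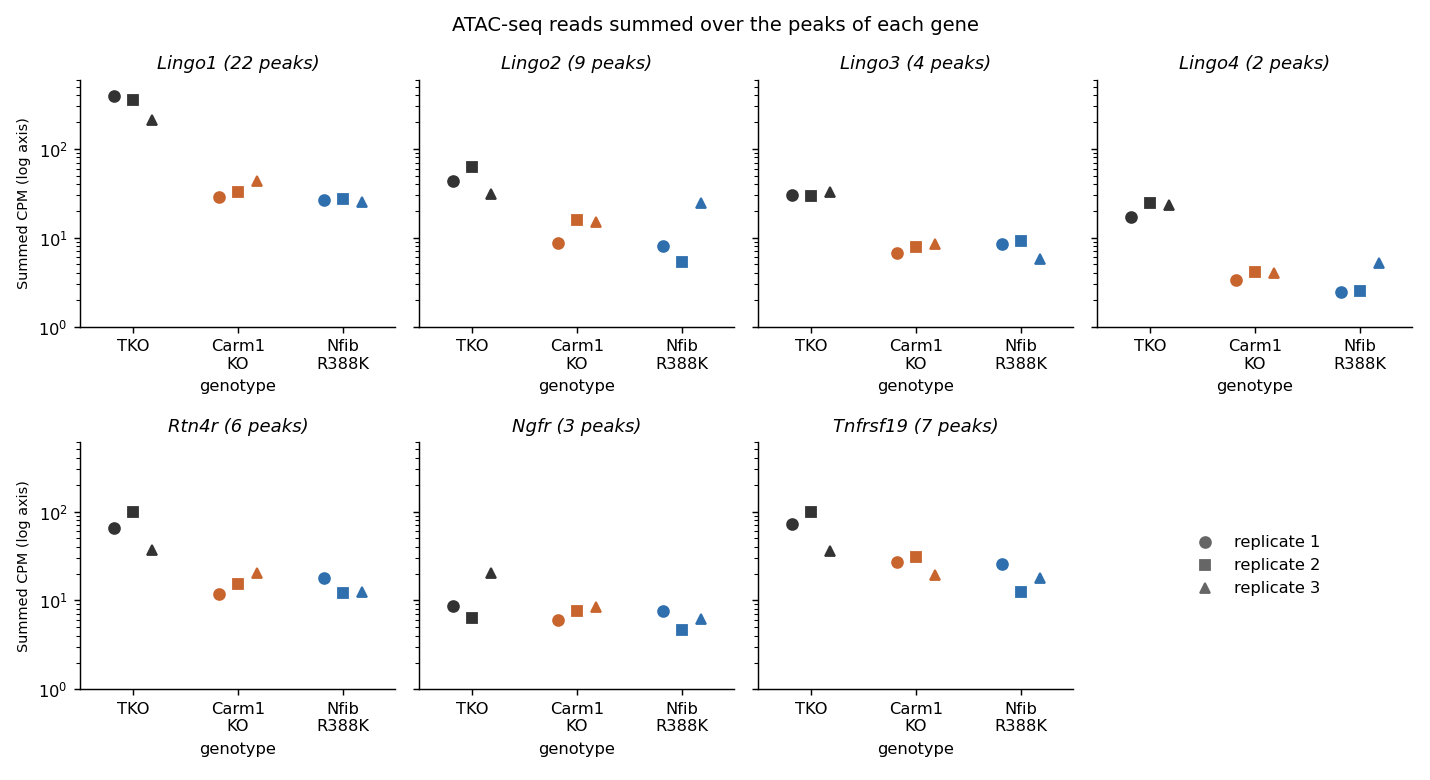
ATAC-seq CPM summed over the peaks of each gene on a log axis, by genotype, with 1 symbol per library as for RNA. TKO libraries lie above the mutant libraries for every gene except Ngfr, whose TKO replicates 1 and 2, at 8.67 and 6.4 CPM, lie beside the mutants at 4.67 to 8.36 CPM and replicate 3 at 20.6 CPM above them.

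What the peaks share in sequence was limited. No full NFI palindrome, TTGGC and GCCAA set 5 bases apart, lay in the middle 300 bases of any of the 53 peaks, and 0.1% of all peaks held one. An NFI arm lay in 35 of the 53, and in 29 of the 43 that were lower in both, against 50.6% of all peaks. These are matches of letters and not shown to be bound. The start-site peaks were rich in G and C, with a median of 61% over 13 windows against 50.7% over the 35 intron windows and 49% over all peaks. All 7 genes had a RefSeq promoter window, from 250 bases before to 50 after the start, and only Lingo2 windows held an arm, while 46.7% of the 32851 promoters did.

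The other genes of the pathway moved in both directions. The calls among receptors and effectors are given below beside the shares of all genes tested. The effector medians were small, at 0.14 in TKO;Carm1 KO and 0.18 in TKO;Nfib R388K, against -0.03 and -0.05 over all genes tested. Of the Nogo ligands, only Rtn4 was expressed well enough to test. It held 193, 191 and 448 CPM in TKO, 542, 570 and 496 CPM in TKO;Carm1 KO and 550, 611 and 932 CPM in TKO;Nfib R388K. Rtn4 was thus higher in every mutant library than in any TKO library and was called higher in both (log2 fold change 0.95, SE 0.37, adjusted p = 0.0791, and 1.33, SE 0.37, adjusted p = 0.0235). The call in TKO;Carm1 KO was lost in 8 of 16 alternatives, where the adjusted p reached 0.203. Mag, the myelin-associated glycoprotein, was at most 1.23 CPM and Omg, the oligodendrocyte-myelin glycoprotein, at most 0.384 CPM in any library.

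Another list held 8 genes for Nogo receptor homologs and other receptors. Of these, 4 were called higher in TKO;Carm1 KO (20.5% of all genes tested) and 3 in TKO;Nfib R388K (22.3%). All 3 were higher in both (17.9%), and none of the 8 was called lower. Their median log2 fold change was 2.05 and 2.62, where that of all genes tested was -0.03 and -0.05. Rtn4rl2, a Nogo receptor homolog, was at 3.21, 1.40 and 0.0442 CPM in TKO and at 32.6 to 138 CPM in the mutants (5.75, SE 1.18, adjusted p = 0.00926, and 5.26, SE 1.15, adjusted p = 0.00952). S1pr2, a sphingosine 1-phosphate receptor that also binds Nogo, rose from 2.45 to 7.53 CPM to between 66.7 and 116 CPM. Lrp1, a large endocytic receptor that binds MAG and is also abundant in fibroblasts, rose from 127 to 177 CPM to between 1513 and 5782 CPM. These rises moved with the fibroblast markers given above, and the part of those cells in them was not tested.

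Among 11 intracellular effectors, Rhoa, the GTPase through which the complex acts, its dissociation inhibitor Arhgdia and the actin-severing protein Cfl1 were higher in both mutants. Rhoa held 169, 159 and 163 CPM in TKO and 344 to 620 CPM in the mutants (1.34, SE 0.23, adjusted p = 0.00432, and 1.51, SE 0.23, adjusted p = 0.0022). Dpysl2, the collapsin response mediator of axon growth, was the only effector lower in both, from 92.2 to 132 CPM to between 40.1 and 67.8 CPM. Its call in TKO;Nfib R388K was lost in 2 of 16 alternatives. Of the 11, 3 were called higher and 1 lower in TKO;Carm1 KO, where 20.5% and 18.3% of all genes tested were. In TKO;Nfib R388K 4 were called higher and 1 lower, where 22.3% and 23.5% were, and the medians were 0.14 and 0.18.

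Of 12 neurotrophin genes and receptors, 11 were tested. In each mutant 4 were called higher (20.5% and 22.3% of all genes tested), 3 of them in both (17.9%), and 0 and 2 were called lower (18.3% and 23.5%). Ntf5, a neurotrophin, stayed low, at 0.0437 to 0.144 CPM in TKO and 0.369 to 3.03 CPM in the mutants. Sorcs1, a sortilin-like sorting receptor, had 1 count in the 3 TKO libraries together and 0.923 to 107 CPM in the mutants. The medians of this list were 1.47 and -0.41.

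The 17 other genes for leucine-rich repeat and immunoglobulin proteins, which include 3 neurotrophin receptors of the list above, moved in both directions. Of these 4 were called lower in TKO;Carm1 KO and 9 in TKO;Nfib R388K (18.3% and 23.5% of all genes tested). A further 3 and 2 were called higher (20.5% and 22.3% of all genes tested), and the medians were -0.36 and -0.93. Lrrn1, a neuronal leucine-rich repeat protein, was at 6.38, 34.0 and 224 CPM in TKO and at most 0.449 CPM in the mutants (-8.92, SE 1.89, adjusted p = 0.0103, and -9.95, SE 2.03, adjusted p = 0.00704). Lrrc4, a synaptic adhesion protein, fell from 24.9, 29.6 and 2.74 CPM to between 0.168 and 0.303 CPM. Lrrn3 was called lower in both, with 12.8 CPM left in TKO;Carm1 KO replicate 3, and Lrrc4c, a netrin-G ligand, was called higher in both, from at most 0.442 CPM to between 0.369 and 7.29 CPM. The Lrrn3 call in TKO;Carm1 KO was lost in 8 of 15 alternatives, and the Lrrc4c calls in 4 of 15 and 3 of 14.

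**Figure D5:**
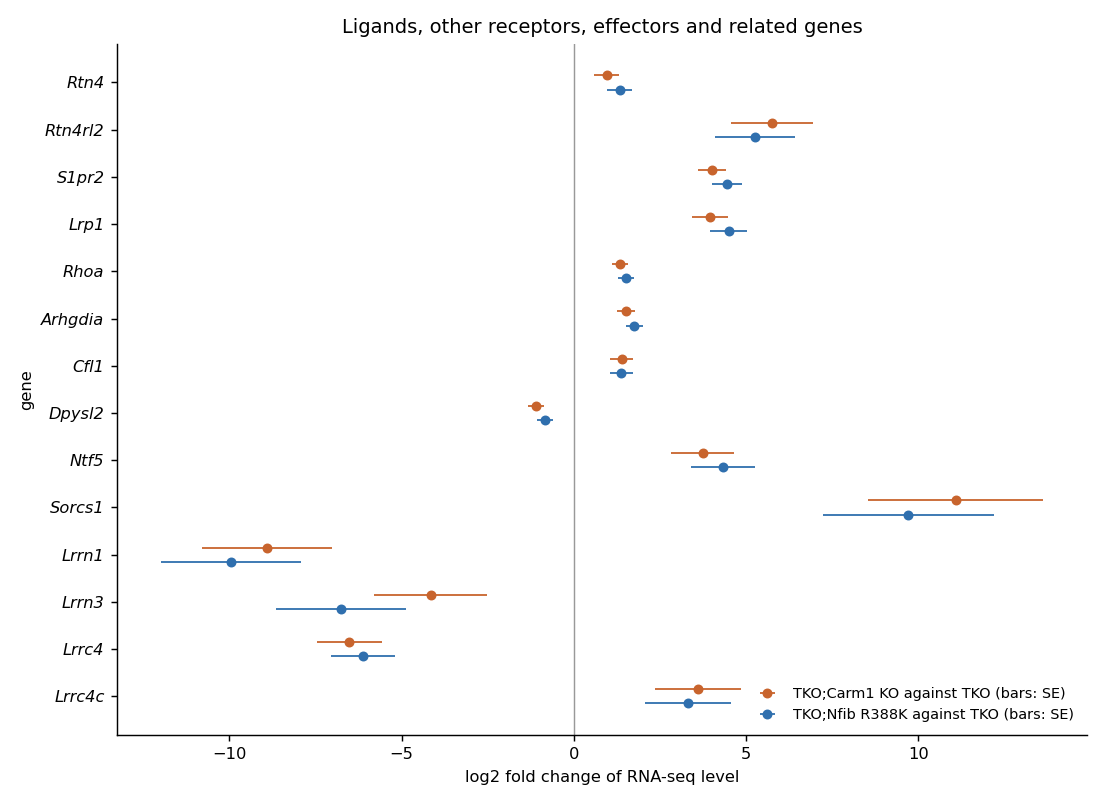
Log2 fold change of RNA-seq level with its SE, for each mutant against TKO, of genes from the 5 lists of ligands, other receptors, effectors, neurotrophin genes and related leucine-rich repeat genes. Rtn4, Rtn4rl2, S1pr2, Lrp1, Rhoa, Arhgdia, Cfl1, Ntf5, Sorcs1 and Lrrc4c lie to the right of 0, and Dpysl2, Lrrn1, Lrrn3 and Lrrc4 to the left; the position of Sorcs1 rests on 1 count in TKO.

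The genes whose levels over the 9 RNA-seq libraries were most like each member were found among 8295 genes by Pearson's r of log2 CPM. They were Sncaip (0.993), Kmt5b (0.991) and Eml5 (0.989) for Lingo1, and Lonrf2 (0.998), Ric3 (0.992) and Celf3 (0.991) for Lingo4. For Lingo2 they were 5730455P16Rik (0.986), Ddx17 (0.981) and Smarcd1 (0.979), and for Lingo3 Slf2 (0.976), Mbip (0.969) and Ttc5 (0.964). Pianp (0.951), Pgap1 (0.946) and Trpm7 (0.939) were nearest to Rtn4r, and Haus3 (0.972), Edrf1 (0.968) and Haus6 (0.965) to Tnfrsf19. The 9 points share the split between TKO and mutants, so these values describe that split in large part.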

How the data were processed

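RNA-seq and ATAC-seq were made from sorted tumor cells of 3 mice per genotype. The columns marked C, KO and N were read as TKO, TKO;Carm1 KO and TKO;Nfib R388K after the group names in the study, since the labels do not spell this out. The authors deposited raw counts per gene (HISAT2 mapping to mm10, htseq-count) and raw counts per peak on 1 merged peak set (featureCounts 1.6.3 per the file header; Bowtie2 mapping to mm10, duplicates removed, regions of altered copy number left out; MACS2 is named as peak caller in the study's methods and Genrich in the submitters' processing notes). Reads in no gene, which stayed out of library sizes, were 10 to 12.2% in TKO and 3.65 to 5.17% in the mutants. Whether htseq-count used strand is not given in the sources used here. All counts were fitted with edgeR 4.0.16 in R 4.3.3 (TMM, filterByExpr, robust quasi-likelihood test, Benjamini-Hochberg adjustment), 1 model of the 9 libraries per assay with no block, and the test was run on simulated data first. CPM use TMM-scaled library sizes. DESeq2 1.42.0, other scalings and filters, a replicate block and leaving out each library were alternatives. Genes and distances follow GENCODE vM21. Intervals and lower bounds on folds cover counting error only. Members and lists were chosen with earlier results of these data known. Named in the text were all 7 members, up to 4 genes per list that were called alike in both mutants with the largest mean change, Rtn4, Mag and Omg, and the 3 genes most like each member. Some items that this rule names are not reported here. Peaks named were the start-site peak with the most counts and up to 2 peaks called alike in both mutants with the largest change and at least 3 log2 CPM; other peaks were chosen after their values were seen.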

Additional observations from a re-analysis of the deposited data

How the results depend on the processing

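In the fits that could test them, the 6 tested genes and 14 of the named peaks (a start-site peak and up to 2 others per gene) kept their direction against TKO. Without TKO;Carm1 KO replicate 2, the Lingo2 start-site peak had a log2 fold change of -3.50. Of 90 refitted values for the 6 genes in TKO;Carm1 KO, 2 lost the call and 2 gained it, and of 89 in TKO;Nfib R388K, 5 lost it and 2 gained it. Of 237 refitted values for these 14 peaks in each comparison, 12 and 5 lost the call. With at least 10 counts required in every library none of the 7 genes could be tested, so 0 were called, and 0 peaks were called higher in either mutant, because the filter removes features near 0 in 1 genotype. Leaving out 1 library at a time gave 2 to 6 genes lower in TKO;Carm1 KO, 4 to 7 in TKO;Nfib R388K, 42 to 44 and 43 to 46 peaks lower, and 3 to 5 and 3 to 3 peaks higher. No library scaling turned a called change. Library totals moved the median of all genes by -0.27 and -0.32 and start-site scaling that of all peaks by 0.41 and 0.48.

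Same-numbered libraries had correlations of deviations from the genotype means between -0.297 and 0.118 in RNA-seq and -0.142 and 0.118 in ATAC-seq. Libraries with different numbers had values between -0.137 and 0.187 in RNA-seq and -0.111 and 0.124 in ATAC-seq. With 3 libraries per genotype, these values cannot settle whether equal numbers mark a shared origin. With a replicate block, 3 genes in TKO;Carm1 KO and 5 in TKO;Nfib R388K, 43 and 44 peaks were called lower and 3 and 3 peaks higher.

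Between the mutants, where nothing was called, small differences turned. The log2 fold change of the Ngfr start-site peak, 0.01, was -0.02 by DESeq2 size factors, by DESeq2's test and with a replicate block, -0.08 by start-site scaling and -0.01 with 10 counts in every library, and that of the Lingo3 start-site peak was 0.02 by library totals. Leaving out 1 library gave -0.00 to 3.12 for Lingo1, -2.81 to 5.91 for Lingo3, 0.00 to 6.01 for Lingo4, -1.22 to 2.44 for Rtn4r and -0.88 to 2.42 for Tnfrsf19. For peaks it gave -0.46 to 0.83 (Lingo1, 28.9 kb), -0.26 to 0.75 and -3.21 to 0.17 (Lingo2 start site and intron), -0.42 to 0.20 (Lingo3 start site) and -0.11 to 0.13 (Ngfr start site). The cause was not tested. The 3 libraries per genotype and the low counts of Lingo2, Lingo3, Lingo4 and Ngfr limit what could be called.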
